A study of Mus musculus with 47 samples.

Results

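The clustered protocadherins of the mouse were followed in brain RNA from 3xTg mice, by taking every gene whose symbol in the authors' tables begins with Pcdha, Pcdhb or Pcdhg. The rule found 58 genes of the 55416 in the count tables, with 14 in the alpha cluster, 22 in the beta cluster and 22 in the gamma cluster, and it read symbols alone. The authors' tables give symbols for 18257 genes. The paper states that genes with too many missing values had been removed, so the pool was not free of measured values. Male and female 3xTg mice had eaten an amino acid-defined Control diet, or a diet low in isoleucine (IleR), leucine (LeuR) or valine (ValR), for 9 months from 6 months of age. The libraries analysed were 14 from males (4 Control, 3 IleR, 3 LeuR and 4 ValR) and 23 from females (6 Control, 5 IleR, 6 LeuR and 6 ValR), and the other 10 libraries in the labels, which are male, were not analysed here. The Control-fed mice carried the same transgenes as the rest: the 3xTg line is a homozygous model of Alzheimer's disease in which mutant human APP and tau are driven in neurons by the Thy1 promoter and mutant presenilin 1 is knocked in, so no group lacked the transgenes. The study's text counts its brain profiling groups in mice, and each library was taken as 1 mouse, although the library labels name no animal.

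Clustered protocadherins are cell adhesion proteins of the cadherin superfamily. Each neuron uses a small set of them, which gives its surface an identity that matching sets on other membranes bind, and this recognition is known for keeping the branches of 1 neuron apart and for shaping dendrites, axons and synapses. In the alpha and gamma clusters a variable exon, which has its own promoter, is spliced to constant exons that all members of that cluster share, while each beta member is a gene of 1 exon. Promoter choice depends on CTCF, cohesin and DNA methylation, and the C-type members (Pcdhac1, Pcdhac2, Pcdhgc3, Pcdhgc4 and Pcdhgc5) are used more uniformly across neurons than the others.

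The 3 clusters follow each other on the plus strand of chromosome 18 of GRCm38. The annotation places alpha at 36930184 to 37187661, beta at 37264938 to 37524479 and gamma at 37661793 to 37841873. Shared constant exons made up a median of 53.4% of the exon bases of an alpha member and 44.7% of those of a gamma member. The expected counts were not whole numbers in 99.2% of alpha values and 99.3% of gamma values, against 25.8% of beta values and 4.14% of values over all genes, so the division of reads among alpha members, and among gamma members, is an estimate by the counting program. Pcdhb21 and Pcdhb22, which overlap by 455 bases, have the same limit. All 58 members passed the filter on low counts in both sexes, and together they took 0.0764% to 0.131% of the counts of a library. The members came from the authors' filtered tables, so passing was in part set in advance. Library totals ran from 12682687 to 25722333 in males and from 10672599 to 21370973 in females.

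Per kilobase of exon, in CPM, which are counts scaled to a common library size and here adjusted by the trimmed mean of M values (TMM), C-type members held the first 3 places in both Control groups. In Control-fed males the levels were 31.4 ± 11.8 CPM per kilobase for Pcdhgc5 (SD, n = 4), 22.7 ± 1.91 for Pcdhgc3 and 14.4 ± 2.67 for Pcdhac2, followed by 9.58 ± 0.659 for Pcdhga4 and 8.15 ± 0.398 for Pcdhb9. In Control-fed females they were 27.9 ± 14.3 (SD, n = 6) for Pcdhgc5, 25.5 ± 9.85 for Pcdhgc3 and 12.6 ± 1.61 for Pcdhac2. In either sex the difference between the first and second places was smaller than the SD of Pcdhgc5. The lowest level belonged to Pcdhb1, at 0.303 CPM per kilobase in Control-fed males and 0.303 in Control-fed females, and Pcdha1 was next with 0.488 and 0.469 CPM per kilobase.

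One property of the libraries moved with the male diets. The labels give the tissue as brain, and the study's text names both the whole brain and the left hemisphere, so the piece of brain behind each library is not settled. Each library was given a hindbrain score, the average of the mean log2 CPM of 16 cerebellum markers and of 16 brainstem and spinal cord markers, minus the mean log2 CPM of 16 forebrain markers. It lay between -6.93 and -4.31 in the 4 Control-fed males, and between -2.72 and 4.51 in the 10 restricted males, with no overlap. In females it ran from -6.84 to 3.63, and each diet group held low and high libraries. For IleR, LeuR and ValR in males, 14, 9 and 15 of the 16 cerebellum markers were higher, 6, 8 and 10 of the 15 brainstem and spinal cord markers tested were higher, and 14, 10 and 15 of the 16 forebrain markers were lower. The score is made from these same markers, so the counts restate it and are no test of it. The summed forebrain level was 2704.8 to 9025.5 CPM in Control-fed males and 212.2 to 1502.9 CPM in LeuR-fed males, the widest range of a restricted group. The summed cerebellum level was 749.9 to 2976.4 CPM in LeuR-fed males, which overlapped the 620.8 to 1436 CPM of Control-fed males. In IleR-fed and ValR-fed males it started at 3175.6 and 3263.9 CPM. In every Control-fed male library the cerebellar marker Gabra6 and 8 of the 16 brainstem and spinal cord markers, 7 of them Hox genes, had at most 3 counts. Such markers could pass the filter on low counts through the restricted groups alone. In males the diet and this score cannot be told apart. Of 12 pan-neuronal markers, 1 was higher for each diet and 2, 2 and 3 were lower. Of 10 astrocyte markers 3, 2 and 4 were higher and 1 was lower for each diet, of 10 microglia markers 2, 0 and 4 were lower, and 1 meningeal marker of 10 was lower for ValR. By edgeR, 0 of the oligodendrocyte, choroid plexus, blood vessel and blood markers passed for any diet, while the summed choroid plexus level spread from 15.1 to 3056 CPM within the Control-fed males. With a choroid plexus score as a covariate, IleR had 1 member that rose and 5 that fell, LeuR 0 and 7, ValR 13 and 8, beside 1 and 7, 0 and 7, and 12 and 9 without it. The share of all genes called with this covariate is not given here. The part of the other cell types in the results was not tested.

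The C-type member Pcdhgc5, whose product is known from late postnatal neurons and has been tied to inhibitory synapses, had the largest change of any member for each of the 3 diets in males. Its level was 304, 287, 108 and 259 CPM in Control-fed males 1, 3, 4 and 5. It was 31.2, 28.5 and 31.4 CPM in the IleR-fed males, 22.3, 58.8 and 56.4 CPM in the LeuR-fed males, and 29.8, 22.8, 24.4 and 29.2 CPM in the ValR-fed males. Every restricted library was below every Control library, Control library 4 being the lowest Control value and also the Control library with the highest hindbrain score. Pcdhgc5 fell by 2.98 ± 0.371 (SE) on the log2 scale for IleR (adjusted p = 0.000853), by 2.39 ± 0.360 for LeuR (adjusted p = 0.00403) and by 3.17 ± 0.335 for ValR (adjusted p = 9.80e-05). With the hindbrain score as a covariate the log2 differences were -0.86 ± 0.57, -0.83 ± 0.47 and -0.62 ± 0.66, and the adjusted p-values were 0.791, 0.826 and 0.824. The LeuR call was also lost when LeuR-fed and Control-fed males were fitted alone (adjusted p = 0.0761). In bulk RNA, fewer cells that express Pcdhgc5 and less Pcdhgc5 RNA per cell cannot be told apart.

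Of the other C-type members 1 passed by edgeR, Pcdhgc3 for ValR. Pcdhgc3, which is known to act in dendrite branching through Axin1, was at 113, 136, 119 and 131 CPM in Control-fed males and at 192, 138, 214 and 222 CPM in ValR-fed males, each above every Control value. It rose in ValR-fed males by 0.62 ± 0.16 (log2, SE; adjusted p = 0.0117). Its differences of 0.48 ± 0.17 for IleR (adjusted p = 0.0690) and -0.01 ± 0.17 for LeuR did not pass, while DESeq2 called it for IleR (adjusted p = 0.0431). Pcdhac2, known for the tiling of serotonergic axons, was at 95.9, 91.9, 61.6 and 90.1 CPM in Control-fed males. It was at 59.4 to 75.4 CPM in IleR-fed, 61.5 to 67.2 CPM in LeuR-fed and 60.9 to 76.5 CPM in ValR-fed males. These values lay below those of Control libraries 1, 3 and 5 and around that of Control library 4, and no diet passed (log2 difference -0.35 ± 0.14, -0.41 ± 0.14 and -0.29 ± 0.13; adjusted p = 0.115, 0.0822 and 0.127), while DESeq2 called Pcdhac2 for LeuR (adjusted p = 0.0368). Pcdhgc4, which neurons need for survival, spread from 20.9 to 48.5 CPM in Control-fed males and reached 75.8 CPM in LeuR-fed male 21, with log2 differences of 0.33 ± 0.30, 0.49 ± 0.30 and 0.26 ± 0.28 that did not pass. Pcdhac1 was the lowest of the 5, at 5.49 to 9.93 CPM in Control-fed males and 5.61 to 8.94 CPM over the IleR-fed males, with a negative log2 difference for each diet (-0.12 ± 0.22, -0.44 ± 0.22 and -0.12 ± 0.20), and it passed for no diet.

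**Figure D1:**
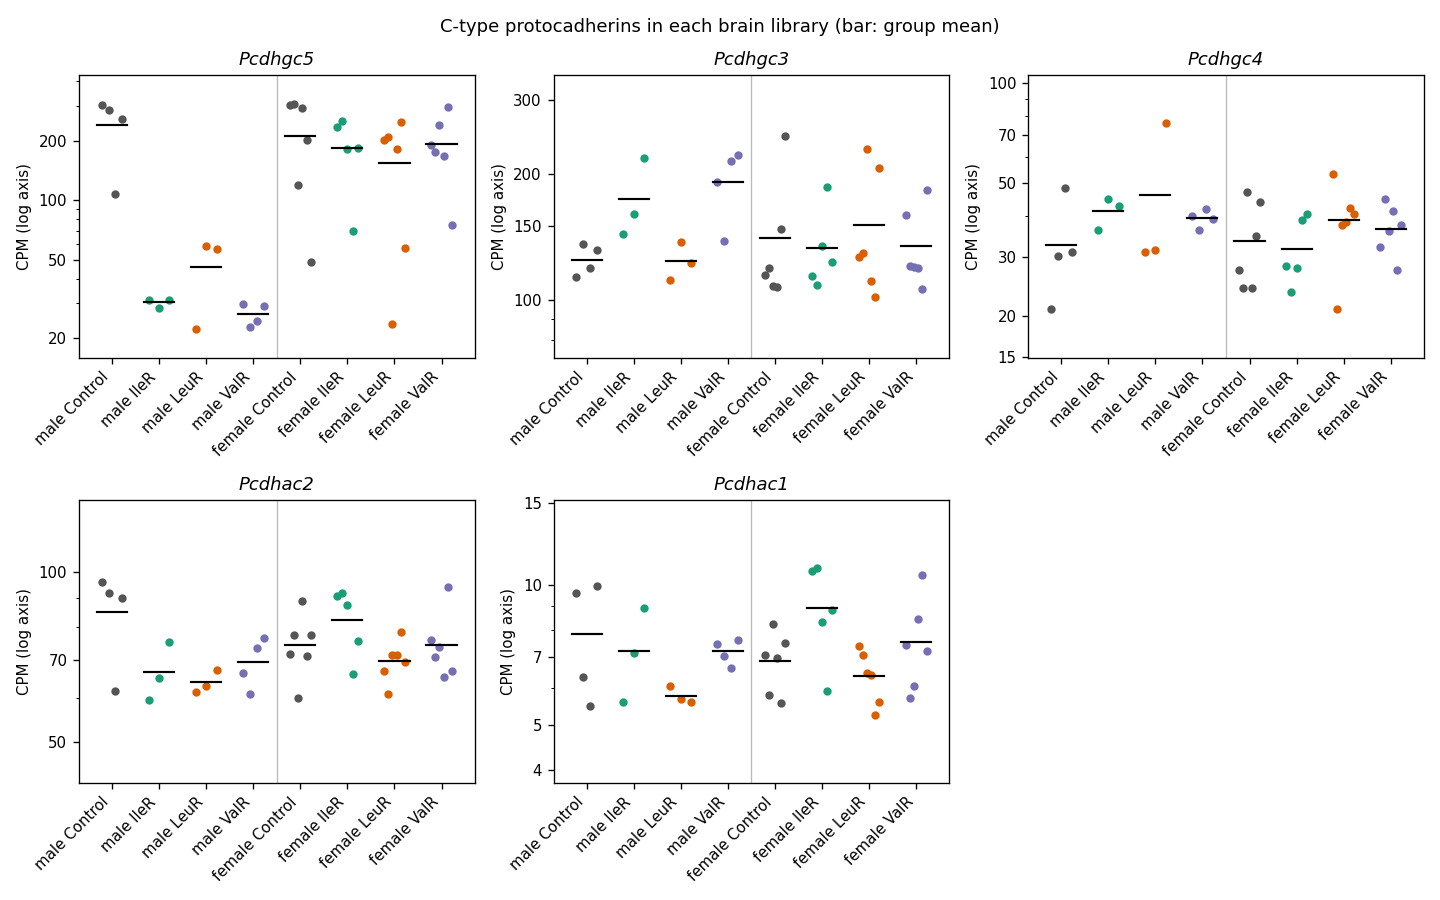
Level of the 5 C-type protocadherins in each of the 37 brain libraries, in CPM on a log axis; points are libraries, bars are group means, and males stand left of the line. Pcdhgc5 lies between 22.3 and 58.8 CPM in the restricted males, below every Control-fed male. Females of every diet spread widely, with lowest values of 48.8 CPM in Control-fed, 69.7 in IleR-fed, 23.6 in LeuR-fed and 75.1 in ValR-fed females.

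Within the gamma cluster, the mean share of Pcdhgc5 was above that of Pcdhgc3 in Control-fed males and below it on each restricted diet. Pcdhgc5 took 29.7 ± 8.45% of gamma counts in Control-fed males (SD, n = 4), and 4.79 ± 0.62%, 7.99 ± 2.74% and 3.92 ± 0.40% in IleR-fed, LeuR-fed and ValR-fed males. Pcdhgc3 took 16.1 ± 2.36% in Control-fed males and 27.1 ± 3.09%, 22.6 ± 3.23% and 28.0 ± 2.50% on the 3 diets. The ratio of Pcdhgc5 to Pcdhgc3 counts was 0.907 to 2.69 in the 4 Control-fed males and 0.114 to 0.462 in the 10 restricted males. It covered both ranges in the 23 females, from 0.103 to 2.81. Shares of 1 sum depend on each other, so a lower Pcdhgc5 raises the share of Pcdhgc3. In LeuR-fed males the level of Pcdhgc3 was 111 to 137 CPM, beside 113 to 136 CPM in Control-fed males. These shares are given without a test.

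Over the 3 comparisons with Control in males, which share the same 4 Control libraries, called members are those with an adjusted p under 0.05 over all genes tested. For IleR, 1 member rose and 7 fell, where 6.63% of the 22197 genes tested rose and 8.68% fell. For LeuR, 0 rose and 7 fell, against 3.81% and 6.33% of all genes. For ValR, 12 rose and 9 fell, against 11.1% and 12.4% of all genes. The shares were not tested against each other. The median log2 difference over the 58 members was -0.16, -0.25 and -0.09, beside 0.04, 0.05 and 0.03 over all genes tested. Over the diets, 25 members passed at least once and 33 did not, and the share of all genes that passed at least once is not given here. At an unadjusted p under 0.05 there were 23, 19 and 29 members, beside 29.6%, 27.0% and 35.2% of all genes. Members with every restricted library above every Control library numbered 9 for IleR, 0 for LeuR and 10 for ValR, beside 14.7%, 8.23% and 12.7% of all genes, and members with every restricted library below every Control library numbered 13, 15 and 7, beside 14.5%, 9.49% and 13.6%.

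These counts moved with the model and with single libraries. The shares of all genes called in these other fits are not given here, so the counts are not set against all genes. With DESeq2, IleR had 4 members higher and 11 lower, LeuR 0 and 15, ValR 14 and 11. With the score as a covariate 0 members passed for any diet, by edgeR's quasi-likelihood test, with 4, 2 and 7 members at an unadjusted p under 0.05; as score and diet do not overlap in males, this fit cannot tell them apart. In a fit of LeuR-fed and Control-fed males alone 0 passed, with 15 at an unadjusted p under 0.05. The number that fell for IleR dropped from 7 to 4 without Control library 1 or IleR library 17, and to 3 without Control library 3, IleR library 13 or IleR library 14. The 1 that rose for IleR was lost without Control library 1 or IleR library 17, and 2 or 3 rose without IleR library 13, LeuR library 19, LeuR library 21 or ValR library 9. For LeuR, 4 fell without Control library 3, 3 without LeuR library 19, and 13 without Control library 4. For ValR, 6 rose without Control library 3 or 5, 7 without ValR library 7 and 5 without ValR library 12. Without Control library 4 and LeuR library 21 together, the males of each side nearest in score to the other side, 4 rose and 12 fell for IleR, 16 fell for LeuR, and 12 rose and 14 fell for ValR.

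**Figure D2:**
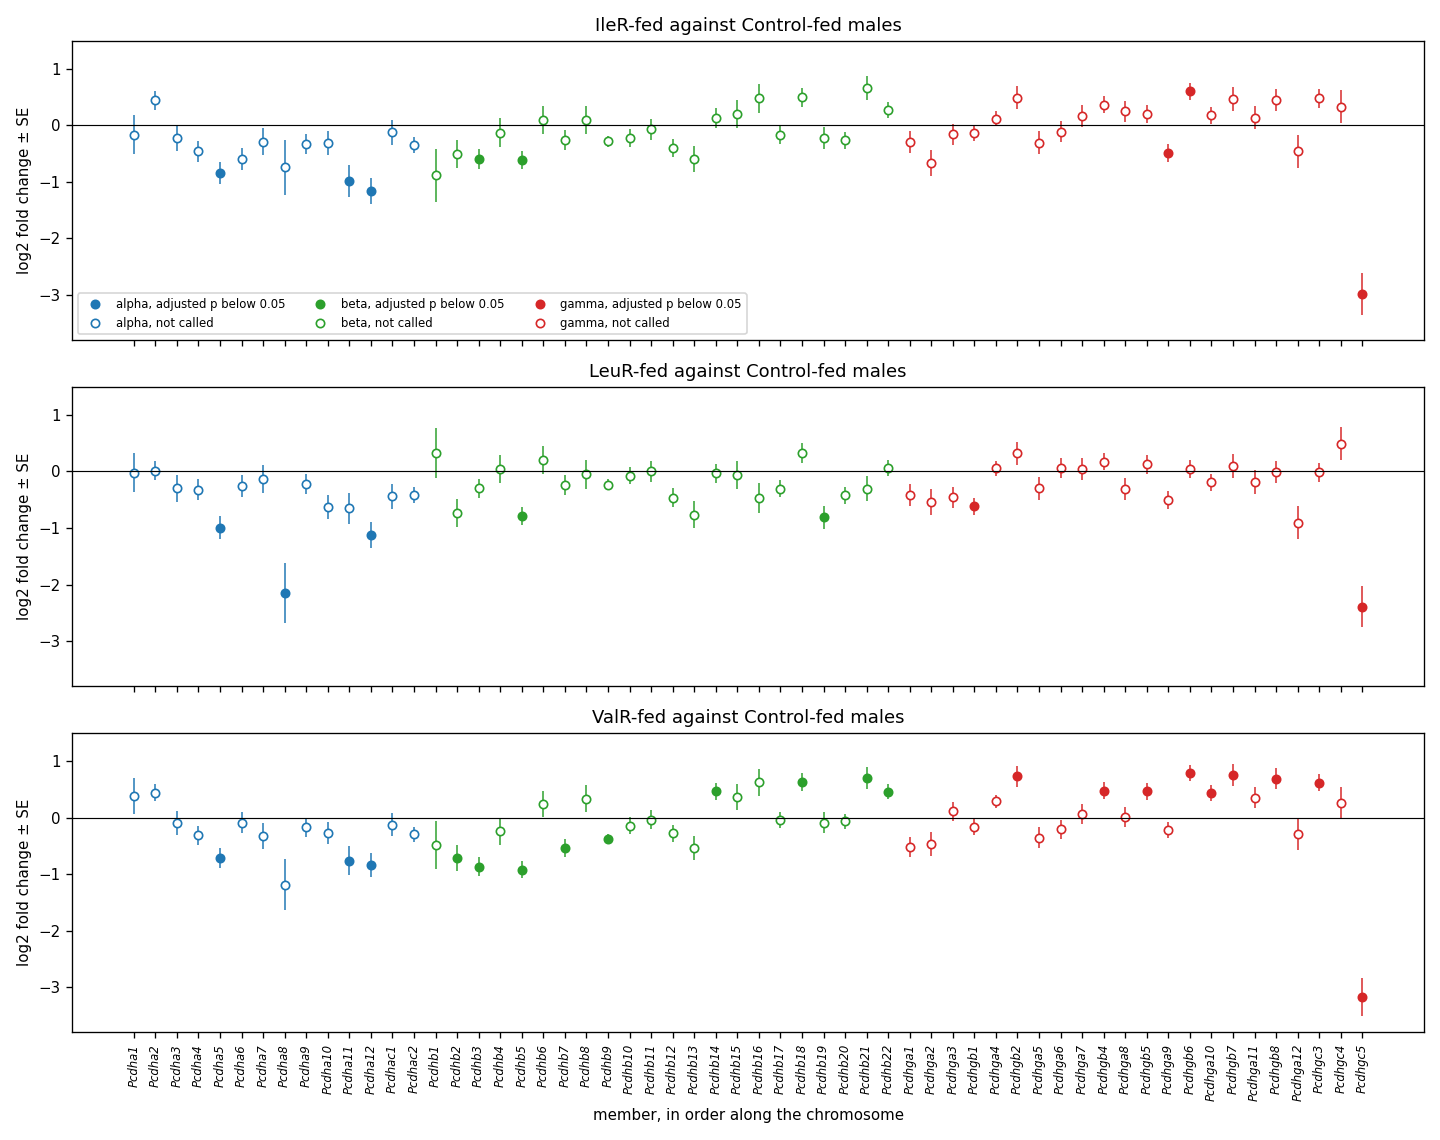
Log2 fold change against Control-fed males for the 58 members in their order along the chromosome, 1 panel per diet; bars are standard errors, filled points have an adjusted p under 0.05, and colours mark the clusters. Pcdhgc5, at the right end, is the lowest point of each panel, at -2.98, -2.39 and -3.17, and in the ValR panel the filled beta points go from below 0 on the left to above 0 on the right.

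In the alpha cluster 3 of 14 members fell and 0 rose for each diet in males by edgeR, beside 8.68%, 6.33% and 12.4% of all genes that fell, and 13, 13 and 12 of 14 had a negative difference. Pcdha2 had positive differences of 0.45 ± 0.17 for IleR (adjusted p = 0.0889) and 0.44 ± 0.16 for ValR (adjusted p = 0.0558). It was at 6.11 to 8.63 CPM in Control-fed males and at 9.82 to 10.9 CPM in IleR-fed males, all above Control, and DESeq2 called it for ValR (adjusted p = 0.0322). Pcdha12, which has the highest mean CPM over all libraries of the 12 alpha members that are not C-type, was at 38.2, 44.7, 25.2 and 41.6 CPM in Control-fed males. It was at 11.9, 17.5 and 20.7 CPM in IleR-fed males, 13.9, 18.9 and 18.8 CPM in LeuR-fed males and 19.6, 16.4, 20.7 and 26.8 CPM in ValR-fed males. The IleR and LeuR libraries were below every Control library, and ValR library 12 was above Control library 4. Pcdha12 fell by 1.16 ± 0.234 (log2, SE; adjusted p = 0.00540) for IleR, by 1.12 ± 0.234 (adjusted p = 0.0124) for LeuR and by 0.84 ± 0.211 (adjusted p = 0.0112) for ValR; the LeuR call was lost without LeuR library 19 (adjusted p = 0.0673) and in the fit of the 2 groups alone.

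Pcdha11 was at 13.4, 10.1, 6.82 and 8.74 CPM in Control-fed males and at 3.63, 5.90 and 5.24 CPM in IleR-fed males. It fell by 0.99 ± 0.281 for IleR (adjusted p = 0.0303) and by 0.77 ± 0.256 for ValR (adjusted p = 0.0446), and each call was lost without any of several libraries: 5 for IleR (Control 1 and 3, IleR 13, 14 and 17, with adjusted p between 0.0542 and 0.111) and 9 for ValR (Control 1, 3 and 5, IleR 14 and 17, LeuR 20, ValR 7, 9 and 12, between 0.0509 and 0.147). Pcdha8, which has the lowest mean CPM of the alpha members over all libraries, was at 4.07, 3.69, 0.991 and 2.17 CPM in Control-fed males and at 0.374, 0.469 and 1.00 CPM in LeuR-fed males, so that LeuR library 21 was just above Control library 4. It fell by 2.15 ± 0.532 for LeuR (adjusted p = 0.0241), and the call was lost without Control library 1 or 3 or LeuR library 19 or 20 (adjusted p = 0.0694 to 0.114). Pcdha5 was the third alpha member to fall for each diet, by 0.84 ± 0.198, 0.99 ± 0.199 and 0.72 ± 0.181 (adjusted p = 0.0119, 0.0108 and 0.0116); the IleR call was lost without IleR library 14 (adjusted p = 0.0619), and the LeuR call in the fit of the 2 groups alone. Pcdha4 stood second in level among these alpha members. It had 20.0, 19.0, 13.9 and 13.0 CPM in Control-fed males and 8.68 to 14.3 CPM in IleR-fed males, and it passed for no diet (lowest adjusted p = 0.119).

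Of the 22 beta members in ValR-fed males, by edgeR, 5 fell (Pcdhb2, Pcdhb3, Pcdhb5, Pcdhb7 and Pcdhb9) and 4 rose (Pcdhb14, Pcdhb18, Pcdhb21 and Pcdhb22), beside 12.4% of all genes that fell and 11.1% that rose. The 5 that fell lie among the first 10 genes of the cluster, Pcdhb1 to Pcdhb10, where 0 rose and the median log2 difference was -0.435. The 4 that rose lie among the last 9, Pcdhb14 to Pcdhb22, where 0 fell and the median was 0.46. This division was drawn after the values were seen and has no test. It rested on single libraries: of the last 9 genes 1 rose without Control library 3, ValR library 7 or ValR library 12, and 2 without Control library 5, while of the first 10 genes 3 fell without Control library 1, Control library 3, ValR library 7 or ValR library 9. For ValR, in each fit that left out 1 male library, 0 of the first 10 rose and 0 of the last 9 fell. By edgeR, Pcdhb3 and Pcdhb5 fell for IleR, and Pcdhb5 and Pcdhb19 for LeuR. For both diets 0 rose, beside 6.63% and 3.81% of all genes that rose and 8.68% and 6.33% that fell. Pcdhb19 is among the last 9, so LeuR did not follow the division there. This LeuR call was lost without Control library 1, 3 or 5 or LeuR library 19. DESeq2 called Pcdhb19 and Pcdhb20, both of the last 9, lower for LeuR (adjusted p = 0.00127 and 0.0308). Pcdhb3 was at 12.7, 20.5, 14.1 and 14.2 CPM in Control-fed males and at 8.35, 9.37, 7.31 and 8.73 CPM in ValR-fed males, all below Control. It fell by 0.87 ± 0.161 (log2, SE; adjusted p = 0.00178) for ValR. For IleR it fell by 0.60 ± 0.173 (adjusted p = 0.0334), a call that was lost without Control library 3, IleR library 13 or IleR library 17 (adjusted p = 0.0934, 0.0966 and 0.127), and in the fits without a filter and of the 2 groups alone.

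Pcdhb5 was at 9.36, 9.79, 10.3 and 7.78 CPM in Control-fed males, at 6.35, 6.55 and 5.39 CPM in IleR-fed, at 5.87, 5.61 and 4.68 CPM in LeuR-fed and at 4.57, 4.68, 5.66 and 4.64 CPM in ValR-fed males. Every restricted library was below every Control library. Pcdhb5 fell by 0.61 ± 0.162 for IleR (adjusted p = 0.0226), by 0.79 ± 0.163 for LeuR (adjusted p = 0.0123) and by 0.92 ± 0.150 for ValR (adjusted p = 0.000764); the IleR call was lost without Control library 1 or 3 or any 1 of the 3 IleR libraries (adjusted p = 0.0522 to 0.0943). Pcdhb9 and Pcdhb17 had the highest CPM of the beta cluster. Pcdhb9 was at 23.2 to 26.0 CPM in Control-fed males and at 18.5 to 20.0 CPM in ValR-fed males, below all Control values, and fell by 0.39 ± 0.0896 (adjusted p = 0.00718). Pcdhb17 was at 17.0 to 18.3 CPM in Control-fed males. It was at 12.1 CPM in ValR library 9 and at 18.3 to 19.1 CPM in the other 3 ValR libraries, and passed for no diet. Pcdhb22 went the other way, from 11.7 to 13.0 CPM in Control-fed males to 15.3 to 18.1 CPM in ValR-fed males, a rise of 0.46 ± 0.129 (adjusted p = 0.0212) that was lost without Control library 3 or 5 or ValR library 7 or 12. The lowest member, Pcdhb1, had 1 to 30 counts in a library and passed for no diet.

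The gamma cluster holds 2 families of variable exons, gamma-A and gamma-B, which are interspersed along the chromosome. The gamma-B member Pcdhgb8 is annotated as a polymorphic pseudogene. In ValR-fed males, by edgeR, of the 7 gamma-B members 6 rose and 0 fell, and of the 12 gamma-A members 1 rose (Pcdhga10) and 0 fell, beside 11.1% of all genes that rose and 12.4% that fell. DESeq2 added lower calls of Pcdhga2 for IleR (adjusted p = 0.0328), Pcdhga9 and Pcdhga12 for LeuR (adjusted p = 0.0183 and 0.0223) and Pcdhga1 for ValR (adjusted p = 0.0203). The gamma-B count dropped to 3 without Control library 5 or ValR library 12, and Pcdhga10 was lost without Control library 3, 4 or 5, IleR library 14, or ValR library 10 or 12. The median log2 difference was 0.68 for gamma-B and -0.10 for gamma-A. For IleR 1 gamma-B member rose and 1 gamma-A member (Pcdhga9) fell, beside 6.63% and 8.68% of all genes, and the medians were 0.44 and -0.14. The call of Pcdhga9 (adjusted p = 0.0498) was lost without Control library 1, 3 or 5, any 1 of the 3 IleR libraries, LeuR library 21, or ValR library 7 or 9 (adjusted p = 0.0514 to 0.159). For LeuR 1 gamma-B member fell, beside 6.33% of all genes, and the medians were 0.10 and -0.30. No test of one family against the other was made.

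Pcdhgb6 was at 11.9, 13.6, 13.0 and 11.8 CPM in Control-fed males, at 18.2, 17.3 and 21.8 CPM in IleR-fed and at 21.8, 15.8, 22.8 and 26.3 CPM in ValR-fed males, all above Control. Its 3 values in LeuR-fed males, 11.6, 14.2 and 13.1 CPM, lay around the Control values. It rose by 0.79 ± 0.145 for ValR (adjusted p = 0.00170) and by 0.60 ± 0.155 for IleR (adjusted p = 0.0187), the latter lost without Control library 1 (adjusted p = 0.0527) or IleR library 17 (adjusted p = 0.0975). Pcdhgb7, the gamma-B member with the highest mean CPM over all libraries, was at 17.8 to 18.5 CPM in Control-fed males and at 29.8, 20.8, 33.3 and 38.3 CPM in ValR-fed males. It rose by 0.75 ± 0.199 (adjusted p = 0.0148; 0.0541 without ValR library 12). Pcdhgb2 was at 9.95 to 11.7 CPM in Control-fed males and at 14.4, 13.0, 19.9 and 23.3 CPM in ValR-fed males, and rose by 0.73 ± 0.192 (adjusted p = 0.0145). Pcdhgb5 had the lowest mean CPM of the gamma-B members over all libraries. Its values of 7.76 to 11.4 CPM in ValR-fed males overlapped the 6.87 to 7.83 CPM of Control-fed males, and its rise of 0.46 ± 0.156 (adjusted p = 0.0469) held in 2 of the 14 fits that left out 1 male library: those without LeuR library 21 or ValR library 10.

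Pcdhgb1 was the gamma-B member that fell for LeuR. It was at 16.5, 21.8, 16.5 and 21.7 CPM in Control-fed males and at 11.3, 11.8 and 14.3 CPM in LeuR-fed males, and fell by 0.62 ± 0.148 (adjusted p = 0.0211), which was lost without Control library 3 or 5 or LeuR library 19 or 20 (adjusted p = 0.0572 to 0.103) and in the fit of the 2 groups alone. Of the gamma-A members, the 2 with the highest levels passed for no diet. Pcdhga4 was at 41.5 to 48.6 CPM in Control-fed and 46.4 to 64.0 CPM in ValR-fed males, and Pcdhga7 at 24.7 to 40.4 and 32.7 to 35.3 CPM. Pcdhga1, the lowest, was at 8.22 to 10.7 CPM in Control-fed and at 5.47 to 7.98 CPM in ValR-fed males, with a log2 difference of -0.52 ± 0.18 (adjusted p = 0.0523 by edgeR).

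Summed over its members, the alpha cluster was at 181 to 265 CPM in Control-fed males, 152 to 178 in IleR-fed, 149 to 174 in LeuR-fed and 167 to 195 in ValR-fed males. The IleR and LeuR sums lay below every Control sum and the ValR sums overlapped them. On the log2 scale the mean sum differed from Control by -0.47, -0.51 and -0.35. The beta sum was at 192 to 218 CPM in Control-fed males and differed by -0.14, -0.27 and -0.08, with the LeuR range of 165 to 178 CPM below Control; scaled by library total without TMM, the log2 differences were -0.012, -0.16 and 0.018, so that the sign for ValR turned. The gamma sum was 784 ± 106 CPM (SD, n = 4) in Control-fed males and 640 ± 73.9, 556 ± 100 and 679 ± 89.8 CPM on the 3 diets. Without Pcdhgc5 the gamma sum was 545 ± 16.8 CPM in Control-fed males and 609 ± 73.8, 510 ± 82.1 and 653 ± 87.4 CPM, so that the log2 difference went from -0.29, -0.50 and -0.21 with Pcdhgc5 to 0.16, -0.10 and 0.26 without it. Scaled by library total without TMM, these were -0.16, -0.39 and -0.11 with Pcdhgc5 and 0.29, 0.0079 and 0.35 without it, so that the LeuR value without Pcdhgc5 changed sign. It also changed sign without LeuR library 19 (0.018) and was -0.21 without LeuR library 21. The IleR value without Pcdhgc5 was 0.25 without IleR library 13 and 0.071 without IleR library 17. The ValR value with Pcdhgc5 was -0.13 without ValR library 9. The alternatives for the sum without Pcdhgc5 were chosen after seeing the data. The sums carry no test.

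**Figure D3:**
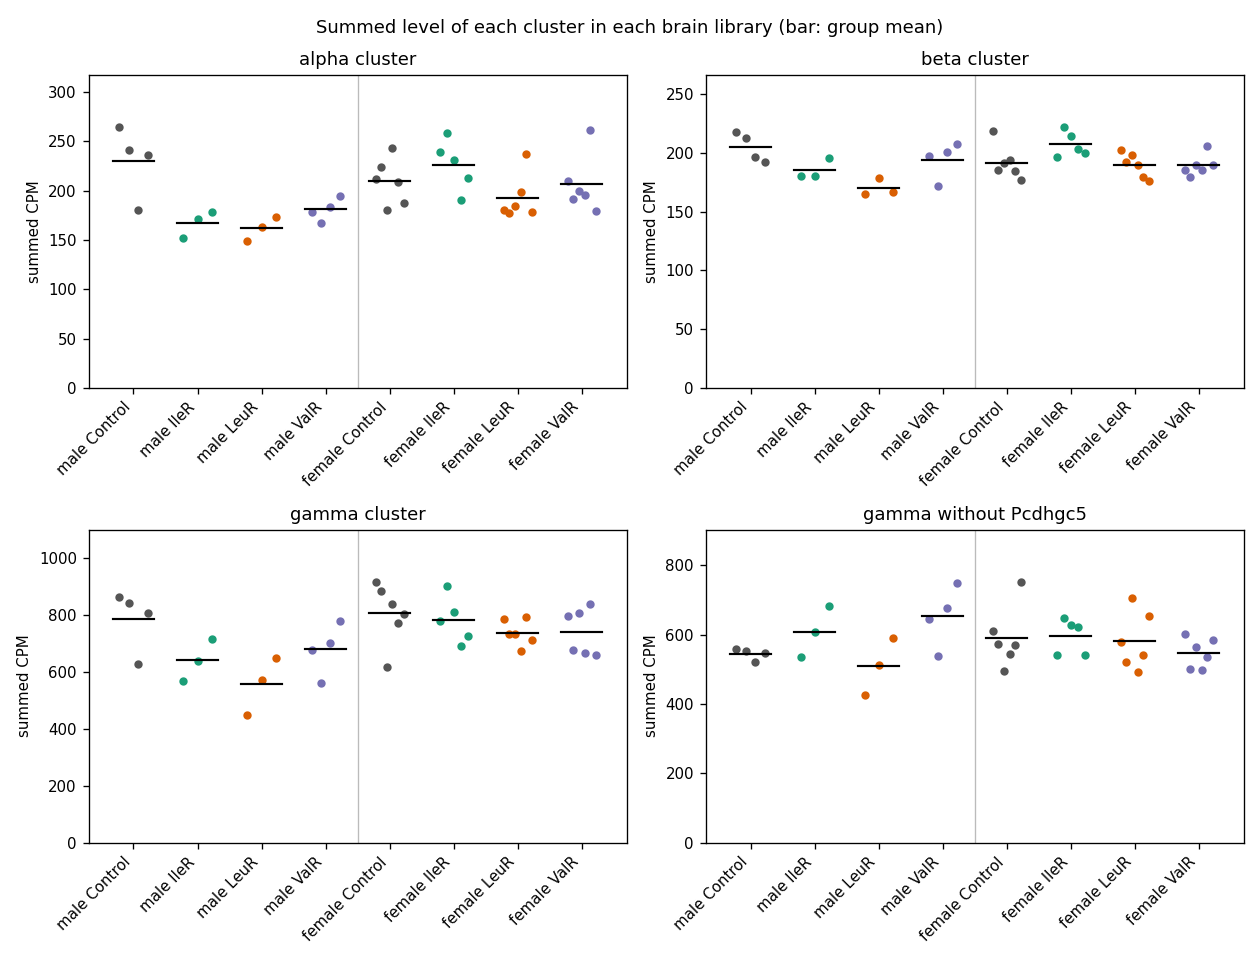
Summed CPM of the alpha, beta and gamma members, and of gamma without Pcdhgc5, in each library on axes that start at 0; points are libraries and bars are group means. The male gamma sums of the 3 restricted diets average 556 to 679 CPM against 784 CPM in Control with Pcdhgc5, and 510 to 653 CPM against 545 CPM without it.

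In females 0 of the 58 members passed for any of the 3 diets by edgeR, limma voom or DESeq2, as did 0% of the 20344 genes tested in edgeR. At an unadjusted p under 0.05 there were 8 members for IleR, 2 for LeuR and 1 for ValR, against 2.84%, 4.03% and 3.82% of all genes. The 2 for LeuR were Pcdha7 (log2 difference -0.48 ± 0.20) and Pcdhb21 (0.47 ± 0.20), and the 1 for ValR was Pcdhga8 (-0.34 ± 0.13); these were picked after their values were seen. The largest of the 8 for IleR was Pcdhga11, at 1.05 ± 0.34 (adjusted p = 1.00). It had 52.8 and 39.4 CPM in IleR libraries 39 and 40 and 10.0 to 14.6 CPM in the other 3, and the difference was 0.61 ± 0.31 without IleR library 39. Pcdhgc5 had a mean of 213 ± 109 CPM (SD, n = 6) in Control-fed females, 184 ± 71.1 in IleR-fed, 154 ± 91.1 in LeuR-fed and 192 ± 75.2 in ValR-fed females. It ranged from 48.8 to 309 CPM in Control-fed females with a median of 247, and from 23.6 to 249 CPM in LeuR-fed females with a median of 192. The spread within each diet was larger than the differences between them, and the log2 differences were -0.21 ± 0.51, -0.47 ± 0.48 and -0.15 ± 0.48.

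The difference between males and females in the diet effect was tested in 1 model of the 37 libraries. For ValR 3 members passed: Pcdhgc5, whose change was 3.03 ± 0.693 lower in males on the log2 scale (-3.03, adjusted p = 0.0169), Pcdhb3 (-0.82 ± 0.24, adjusted p = 0.0485) and Pcdhgb2 (0.99 ± 0.24, adjusted p = 0.0207). Among all 22465 genes tested 0.677% passed in the direction of Pcdhgb2 and 3.57% in that of the other pair, 4.25% in all. The female ValR differences of these members were -0.15 ± 0.48, -0.07 ± 0.16 and -0.29 ± 0.15, and the female ValR and Control libraries overlapped for each. With limma voom all 3 calls were lost, with adjusted p of 0.0520, 0.0611 and 0.0503. For IleR and LeuR 0 members passed (lowest adjusted p = 0.0769 and 0.100), where 0.0979% and 0.00445% of all genes passed. At an unadjusted p under 0.05 there were 18 and 11 members, beside 19.1% and 13.0% of all genes. DESeq2 called 4 and 2 members, and its share of all genes is not given here. Since the male groups differ in hindbrain score and the female groups overlap in it, sex and score cannot be told apart in this test.

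The females allowed the members to be set against the hindbrain score within diets. Of the 16 brainstem and spinal cord markers, 7 passed the filter on low counts in females. In IleR-fed females 7 Hox genes had at most 3 counts, so this part of the score held markers near the floor. In the 23 females 12 members rose with the score and 16 fell, in a fit with diet as a term, where 22.0% of all genes rose and 24.0% fell. The 28 members that passed stand beside 46.0% of all genes, and the 31 members with an unadjusted p under 0.05 beside 52.1%, so the share of members was close to that of all genes. Pcdhgc5 had the steepest slope among members, -0.33 ± 0.03 (log2 per unit of score, SE; adjusted p = 4.94e-09), and Pcdhgc3 the steepest upward one, 0.13 ± 0.01 (adjusted p = 8.89e-08). The 5 female libraries with a score above -2 (Control 30, IleR 41, LeuR 45 and 48, ValR 36) had 23.6 to 75.1 CPM of Pcdhgc5, and the other 18 had 120 to 309 CPM. For Pcdhgc3 the same 5 libraries had 183 to 247 CPM and the other 18 had 102 to 159 CPM. The limit of -2 was set after the values were seen, and these ranges describe the slopes and are no test. Pcdha12 had a slope of -0.11 ± 0.02 (adjusted p = 2.55e-05) and Pcdhgb7 one of 0.12 ± 0.02 (adjusted p = 1.63e-05). In the 14 males, where the score within diets spans less, 0 members passed, where 0.0946% of all genes rose and 0.527% fell, and 8 had an unadjusted p under 0.05, beside 14.5% of all genes, with Pcdhgc5 at -0.25 ± 0.06 (adjusted p = 0.104), Pcdhgc3 at -0.02 ± 0.04 (adjusted p = 0.923) and Pcdhga1 at -0.12 ± 0.04 (adjusted p = 0.202). The smallest p-values among positive slopes were those of Pcdhb22 (0.06 ± 0.03, adjusted p = 0.358) and Pcdhgb5 (0.06 ± 0.04, adjusted p = 0.513).

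**Figure D4:**
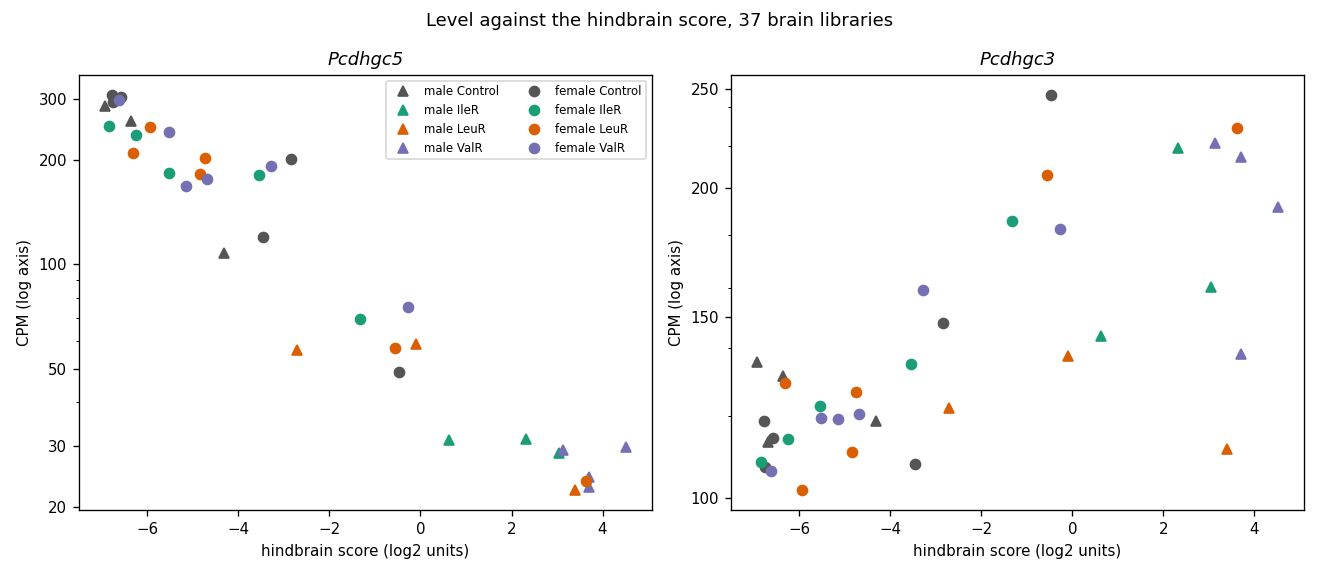
Level of Pcdhgc5 and Pcdhgc3 in CPM on a log axis against the hindbrain score of the 37 libraries, with males as triangles, females as circles and colours for diets. Pcdhgc5 runs from 309 CPM in a Control-fed female to 22.3 CPM in LeuR-fed male 19. For Pcdhgc3, 5 restricted males with a score above -2 (LeuR 19 and 20, ValR 9, IleR 13 and 14) lie at 111 to 160 CPM, below the 183 to 247 CPM of the 5 females above that score.

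By family, again with no test of one against another, the calls stand beside the 22.0% of all genes that rose with the score and the 24.0% that fell. Of the gamma-B members 5 of 7 rose with the score in females and 0 fell, and of the gamma-A members 0 of 12 rose and 5 fell. In males, where no member passed, 3 of the 7 gamma-B slopes were positive and 4 negative (median -0.026, against 0.069 in females), and all 12 gamma-A slopes were negative (median -0.084, against -0.022 in females). In the beta cluster 4 of the first 10 genes fell and 0 rose, 5 of the last 9 rose and 0 fell, and of the 3 between them Pcdhb13 fell. In the alpha cluster 5 of 14 fell and Pcdha2 rose. Of these calls, that of Pcdhb18 was lost in 11 of the 23 fits that left out 1 female library and that of Pcdhgb2 in 7. Both were weakest without LeuR library 45 (slopes of 0.024 and 0.027, adjusted p = 0.459 and 0.352). Without that library Pcdhgb6 was lost as well (adjusted p = 0.0703), Pcdha2 and Pcdhga6 were lost without IleR library 41 (adjusted p = 0.0585 and 0.0514), and Pcdhb9 without LeuR library 48 or ValR library 36 (adjusted p = 0.0541 and 0.0527). Of the 12 members that rose in ValR-fed males, 10 also rose with the score in females (Pcdhb18, Pcdhgb2 and Pcdhgb6 among them), which is 83.3% of the male list and 83.3% of the 12 in the female list. Of the 9 that fell in ValR-fed males, 8 fell with the score in females, which is 88.9% of the male list and 50% of the 16 in the female list, and 0 went the other way in either case. Over all genes called in ValR-fed males the corresponding shares of the male lists were 82.5% and 90.8%, close to those of the members. Of the 7 that fell in IleR-fed males, 6 fell with the score (85.7% of the male list and 37.5% of the female list, beside 94.0% of the male list over all genes). Of the 7 that fell in LeuR-fed males, 4 did (57.1% and 25%, beside 80.3% over all genes), and Pcdha8, Pcdhb19 and Pcdhgb1 did not pass in females. Pcdhgb6, the 1 member that rose in IleR-fed males, also rose with the score. The male and the female libraries are different ones, and the score was computed from genes outside the clusters.

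**Figure D5:**
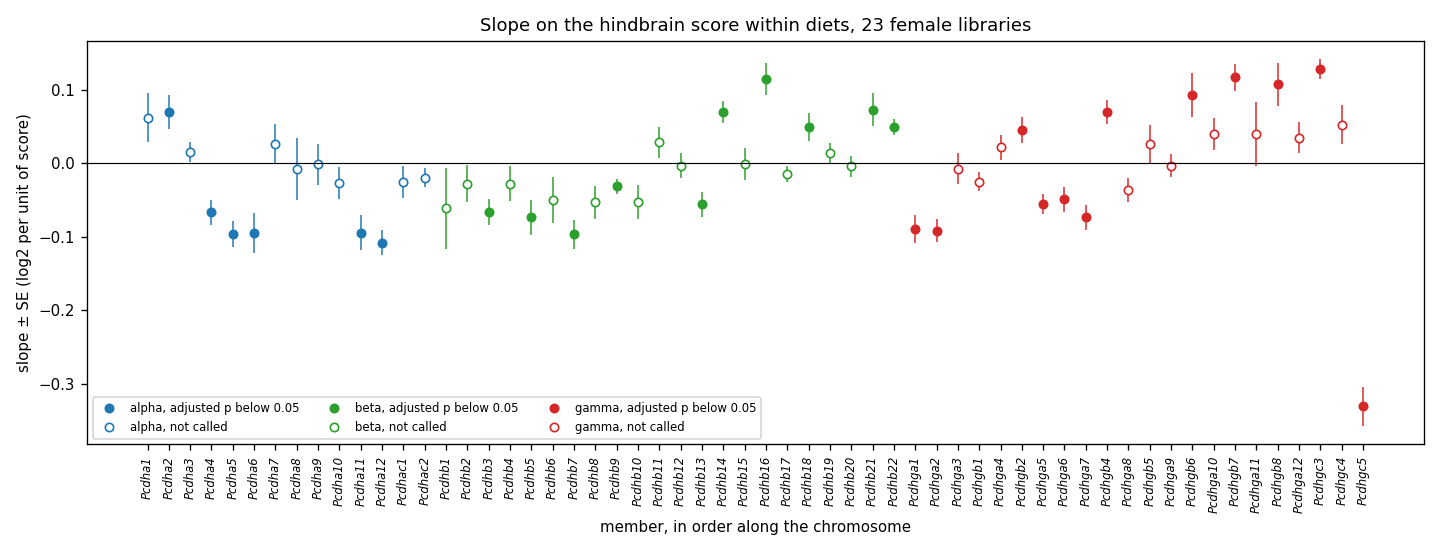
Slope of each member on the hindbrain score in 23 female libraries, with diet as a term, in log2 units per unit of score; bars are standard errors, filled points have an adjusted p under 0.05, and the order is that along the chromosome. Pcdhgc5 lies at -0.33 and Pcdhgc3 at 0.13, and the filled beta points change from below to above 0 along the cluster.

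Other genes were counted from 4 lists, of partners, of regulators, of non-clustered protocadherins and of neighbours on the chromosome. Of 22 partners in cleavage and in the cytoplasm, 2 rose and 10 fell for each diet in males, beside 6.63%, 3.81% and 11.1% of all genes that rose and 8.68%, 6.33% and 12.4% that fell. In females 4 rose and 14 fell with the hindbrain score, beside 22.0% and 24.0% of all genes. These shares of all genes apply to the counts of the next 3 lists as well. Ptk2b, a kinase that clustered protocadherins bind and hold in check, went from 506 ± 210 CPM in Control-fed males (SD, n = 4) to 35.5 ± 26.6, 78.8 ± 54.9 and 16.6 ± 0.974 CPM, a fall of 3.84 ± 0.672, 2.69 ± 0.632 and 4.93 ± 0.631 on the log2 scale. Ret, a receptor kinase found in complexes with them, rose from 12.6 ± 12.9 CPM to 58.6 ± 31.9, 66.1 ± 17.2 and 53.9 ± 14.0 CPM (log2 2.22 ± 0.57, 2.40 ± 0.57 and 2.10 ± 0.545). Members of the WAVE complex that alpha protocadherins recruit (Wasf1, Nckap1, Cyfip2, Abi1, Abi2 and Brk1) were among those that fell for each diet.

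Of 21 regulators of promoter choice and chromatin, 2 rose for IleR, 1 fell for LeuR, and 5 rose and 1 fell for ValR. The DNA methyltransferase Dnmt3b, which methylates variable promoters, rose from 1.05 ± 0.111 CPM to 2.37 ± 0.868 CPM in IleR-fed and 3.25 ± 1.04 CPM in ValR-fed males (log2 1.17 ± 0.32 and 1.63 ± 0.30). The DNA demethylase Tet1 rose from 10.8 ± 2.01 CPM to 18.7 ± 3.22 and 21.4 ± 5.72 CPM. Tet2 was the 1 that fell for LeuR, from 59.6 ± 11.5 to 39.9 ± 7.48 CPM. In females 15 of these 21 rose with the score and 1 fell, beside 22.0% and 24.0% of all genes. Among 12 non-clustered protocadherins 0 rose, and 2, 1 and 5 fell. Pcdh1 fell for each diet, from 296 ± 81.3 CPM to 101 ± 14.2, 123 ± 52.2 and 92.1 ± 11.1 CPM; Pcdh10 fell for IleR, to 136 ± 29.9 CPM, and for ValR, to 93.9 ± 15.6 CPM, from 237 ± 29.2 CPM, and Pcdh8 for ValR, to 9.51 ± 2.98 CPM from 44.8 ± 9.70 CPM. In females 0 of the 12 rose and 7 fell with the score.

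The 11 genes beside or between the clusters moved both ways. For IleR 1 rose and 2 fell, for LeuR 1 fell, and for ValR 2 rose and 2 fell. Taf7, a general transcription factor gene between the beta and gamma clusters, rose from 8.08 ± 1.38 CPM to 13.3 ± 1.73 CPM in IleR-fed and 13.6 ± 1.32 CPM in ValR-fed males. Diaph1, an actin regulator beyond the gamma cluster, fell from 76.8 ± 8.12 CPM to 52.0 ± 1.42, 59.0 ± 2.70 and 55.8 ± 1.10 CPM. Whether the hindbrain score accounts for the movement of any of these genes was not tested.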

How the data were processed

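Brain RNA of 3xTg males and females had been sequenced. The authors deposited expected counts (estimated counts per Ensembl gene from RSEM, not normalized); the submitters' processing notes name GRCm38, and the aligner is not given in the sources used here. The authors also deposited log2 fold changes, p-values and Benjamini-Hochberg adjusted p-values from TMM, voom and limma (their notes name R 3.4.3), of which the gene symbols alone were used. The sources differ on polyA or total RNA, and the extraction label names liver. Coordinates came from the GENCODE annotation of GRCm38.

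The deposited expected counts were rounded. A gene was kept if each library of some diet group held 1 count or more. The main test was edgeR 4.0.16 (TMM, quasi-likelihood) in R 4.3.3, with the 4 diets of a sex in 1 fit; limma 3.58.1 and DESeq2 1.42.0 were alternatives. P-values were adjusted by Benjamini-Hochberg over all genes tested and called under 0.05; adjusted p-values are edgeR's unless another tool is named. CPM are TMM-scaled, and marker scores used log2 CPM with a prior count of 2. The hindbrain score was also fitted as a slope with diet as a term. Other alternatives were RLE scaling, other filters, fits of 2 groups, the hindbrain or choroid plexus score as a covariate, and omission of each library. The fit was also run on simulated data, with an outcome that is not given here. Over 73 pairs of libraries of 1 group, none agreed within sampling noise. Summaries and plots used Python 3.11.15, pandas 2.3.3, numpy 2.4.6 and matplotlib 3.10.9.

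The members and lists were chosen with earlier results of these data known. Members named with values are the C-type members; in the alpha, beta, gamma-A and gamma-B groups the 2 with the highest and the 1 with the lowest mean CPM; per diet, sex and direction the 3 called members of largest change; those with a called sex difference; and per direction the 2 with the smallest slope p in each sex. From each of the 4 gene lists the 2 called genes of largest change per male diet are named.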

Additional observations from a re-analysis of the deposited data

Results flagged for a closer look

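In 8 of 156 groups of 4 to 6 libraries checked for the named members and the cluster sums, the highest or lowest library stood apart from the others by Dixon's criterion, where chance gives about 7.8. In Control-fed females, library 30 had the highest Pcdhgc3, 247 CPM against 107 to 148 CPM in the others, and the highest Pcdhgb7, 37.3 CPM against 15.7 to 22.2 CPM. This library has the highest hindbrain score of its group, -0.47. In ValR-fed females Pcdhac2 was at 94.0 CPM in library 35 against 65.1 to 75.9 CPM, and Pcdhgb5 at 11.4 CPM in library 33 against 6.31 to 8.04 CPM. In LeuR-fed females the alpha cluster sum was 237 CPM in library 47 against 177 to 199 CPM. In ValR-fed males Pcdhb17 was lowest in library 9, at 12.1 CPM against 18.3 to 19.1 CPM, and Pcdhb5 highest in library 10, at 5.66 CPM against 4.57 to 4.68 CPM. In Control-fed males Pcdhb22 was at 13.0 CPM in library 1 against 11.7 CPM in the other libraries.

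The ValR difference passed the test between males and females for 3 members, as the interaction of diet and sex over 37 libraries with edgeR. The male minus female log2 difference was -3.03 for Pcdhgc5, -0.82 for Pcdhb3 and 0.99 for Pcdhgb2. With limma voom the adjusted p was 0.0520, 0.0611 and 0.0503, so none passed, and Control-fed and ValR-fed libraries do not overlap in hindbrain score in males but do in females, so that sex and score cannot be told apart.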

How the results depend on the processing

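With the hindbrain score as a covariate, 0 members were called in males for IleR, LeuR or ValR in either direction, and of the 23 log2 fold changes of named members called in males 20 lost their call and 3 changed sign for ValR: Pcdhgb5 to -0.15 (adjusted p = 0.938), Pcdha11 to 0.34 (adjusted p = 0.917) and Pcdhb22 to -0.18 (adjusted p = 0.903). In males DESeq2 called 4 members higher and 11 lower for IleR and 15 lower for LeuR, limma voom 2 higher for IleR, a minimum mean count of 10 2 higher for IleR, and the fit of the 2 groups alone 0 lower for LeuR. Without the 2 libraries nearest in score, an alternative chosen after seeing the data, 4 were higher and 12 lower for IleR, 16 lower for LeuR and 14 lower for ValR. In the test of male against female differences, DESeq2 called 4 members lower for IleR, 2 lower for LeuR, and 2 higher and 6 lower for ValR, and limma voom 0 higher and 0 lower for ValR. Shares of all genes called in these fits are not given here. Scaling by library total without TMM moved the median of all genes by 0.13, 0.10 and 0.09 on the log2 scale in males, and the log2 ratio of the beta sum to -0.012 for IleR and -0.16 for LeuR.

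When 1 library was left out at a time, the members called in males ranged from 0 to 3 higher and 3 to 10 lower for IleR, 3 to 13 lower for LeuR, and 5 to 14 higher and 6 to 13 lower for ValR, and in females from 10 to 13 rising and 15 to 18 falling with the score. Over the results of single named members, 788 recomputed values kept direction and call, 100 kept direction and lost the call, and 3 changed sign. No paired analysis was possible because each library number occurs once and no number is shared between groups.

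Depth limits Pcdhb1, which had 1 to 30 counts in a library. Division of shared reads limits the single alpha and gamma members. In males the hindbrain score and the diet cannot be told apart, since Control and restricted libraries do not overlap in it.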

Other observations

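Some members differed by library within female groups. Over the 54 members with a mean of at least 50 counts, 28 of 1998 values differed by more than 2-fold from the median of the other libraries of the same group, and 8 of the 28 were of Pcdhgc5. Pcdhga11 was at 52.8 and 39.4 CPM in IleR-fed females 39 and 40, and at 10.0 and 11.8 CPM in IleR-fed females 42 and 38, libraries with hindbrain scores between -6.84 and -3.54. Pcdhgb8, annotated as a polymorphic pseudogene, was at 2.96 CPM in IleR-fed female 39, where the median of the other libraries of the group was 12.3 CPM. Pcdhgb6 was at 30.4 and 32.9 CPM in IleR-fed females 39 and 40 and at 12.5 and 12.2 CPM in IleR-fed females 38 and 42. In LeuR-fed females, Pcdha6 was at 13.6 CPM in library 47 against a median of 5.49 CPM in the others, and Pcdha7 was at 2.75 CPM in library 44 against 6.67 CPM. These members were picked after their values were seen. Reads of alpha and of gamma members are divided among members by the counting program, and the part of that division in these values was not tested.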
